A study of Mus musculus with 2 samples.

Results

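Gata3 sites at promoters are short stretches of the mouse genome at which both Gata3 ChIP-seq libraries of TH2 cells piled up reads close to the start of a protein-coding gene. Chromosomes 1 to 19 of GRCm38 were cut into 200-bp bins, and a site is a run of touching bins with an RPM (reads per 1000000 counted reads) of at least 0.8 in each of the 2 libraries. Its centre is the middle of the bin whose lower RPM of the 2 libraries is highest, and the promoter sites are those with the centre within 1 kb of a gene start in GENCODE M21. Of 10800 sites, 812 met this rule (7.52%, 95% exact interval 7.03 to 8.03%), and the other 9988 lay farther from any such start. The sites were therefore chosen by their read counts in both libraries, and these counts are a description without a test.

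Gata3 is a zinc finger transcription factor that binds DNA through short GATA motifs and directs the differentiation of TH2 cells, the helper T cells that make IL-4, IL-5 and IL-13. A promoter is the DNA around a gene's start at which RNA polymerase assembles, and most promoters of widely used genes lie in CpG-rich sequence. Lineage factors such as Gata3 are known to bind enhancers away from gene starts as well as promoters.

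The libraries, numbered 1 and 2 in the labels, came from splenic mouse TH2 cells expanded *in vitro* on anti-CD3 with anti-CD28, IL-2, IL-4 and anti-IFNγ. The labels of the extraction step name ILC2 in place of TH2 cells, and the genotype of the mice is not given in the sources used here. Chromatin was precipitated with an antibody against Gata3 (clone D13C9) and cut by a transposase on the beads (ChIPmentation). There is 1 condition, no input or control antibody was used here, and nothing states whether the libraries came from separate cultures or animals, so spread between them may be technical.

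Sequences at the centres of promoter sites are shown for the motifs they do or do not hold, chiefly the GATA motif. WGATAR stands for GATA with A or T before it and A or G after it, such as AGATAA, on either strand, so that AGATAA on the opposite strand reads TTATCT. Each is printed 5′ to 3′ on the strand of its gene from GRCm38, with 100 bases, or 30 where the stretch touches an annotated untranslated region. Capitals mark every WGATAR in the printed stretch. The first set is the 5 tallest sites with *Il2rb* and *Cish*, ranked 6 and 15:
*Irf9* (chr14:55603967-55603996, + strand): gtctgatctggAGATAAccttcctgggaac
*Stk40* (chr4:126103805-126103904, + strand): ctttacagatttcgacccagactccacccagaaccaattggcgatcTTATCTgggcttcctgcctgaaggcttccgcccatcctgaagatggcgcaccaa
*Zfp213* (chr17:23563647-23563746, − strand): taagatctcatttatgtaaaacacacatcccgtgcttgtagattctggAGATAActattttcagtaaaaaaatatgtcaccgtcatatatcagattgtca
*Tcf3* (chr10:80433850-80433949, − strand): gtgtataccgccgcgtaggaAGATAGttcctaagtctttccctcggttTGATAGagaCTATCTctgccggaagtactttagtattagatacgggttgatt
*Ralgapb* (chr2:158409331-158409430, + strand): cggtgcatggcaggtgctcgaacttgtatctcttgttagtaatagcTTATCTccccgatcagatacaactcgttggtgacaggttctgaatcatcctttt
*Il2rb* (chr15:78495167-78495196, − strand): gtaggaggagatcTTATCAgtgctaggtgt
*Cish* (chr9:107295816-107295915, + strand): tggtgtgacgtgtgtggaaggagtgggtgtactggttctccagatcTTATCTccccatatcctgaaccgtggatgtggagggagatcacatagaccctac

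The next set shows the tallest sites without WGATAR within 100 bp of the centre. Capitals mark the AP-1 motif (TGACTCA or TGAGTCA) in *Capns1* and *Olfr433*, and AGATTG, here as CAATCT on the opposite strand, in *Hint1*. Where AP-1 is marked, other letters stay in lower case. The *Capns1* stretch also holds AGATTA, as TAATCT on the opposite strand, and AGATCT. No capitals are used for *Tnfaip1*, whose window holds none of these letters:
*Capns1* (chr7:30198605-30198704, − strand): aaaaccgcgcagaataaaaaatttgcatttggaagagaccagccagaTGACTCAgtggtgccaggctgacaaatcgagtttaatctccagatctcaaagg
*Olfr433* (chr1:174041062-174041091, + strand): cctggggattcTGACTCAcacttttcttct
*Hint1* (chr11:54866842-54866941, + strand): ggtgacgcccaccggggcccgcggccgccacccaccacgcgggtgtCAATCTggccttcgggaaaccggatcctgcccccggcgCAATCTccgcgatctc
*Tnfaip1* (chr11:78536286-78536315, − strand): cggaagtagaaggaagtcaaacgtcaagtt

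The third set holds chosen promoter sites of T cell genes, with WGATAR in capitals, and does not give their share with the motif. The sites of *Il21*, *Il2ra*, *Cd3d* with *Cd3g*, *Cd4*, *Lck*, *Fasl*, *Socs3*, *Ccr1* and *Runx1* had no WGATAR within 100 bp of the centre and are not printed. Over all promoter sites the share with WGATAR was 55.9%. *Havcr2* has no WGATAR, and its capitals mark AGATTA:
*Il5* (chr11:53719890-53719989, + strand): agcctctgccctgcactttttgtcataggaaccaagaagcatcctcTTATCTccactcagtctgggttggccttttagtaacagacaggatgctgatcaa
*Il13* (chr11:53634732-53634831, − strand): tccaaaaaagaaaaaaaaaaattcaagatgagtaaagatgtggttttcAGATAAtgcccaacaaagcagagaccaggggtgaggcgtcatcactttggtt
*Il6* (chr5:30013013-30013112, + strand): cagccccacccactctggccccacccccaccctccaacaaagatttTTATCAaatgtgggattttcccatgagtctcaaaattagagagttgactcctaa
*Tnf* (chr17:35201278-35201377, − strand): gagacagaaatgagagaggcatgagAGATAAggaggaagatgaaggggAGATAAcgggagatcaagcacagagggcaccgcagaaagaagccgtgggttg
*Il9r* (chr11:32200293-32200322, − strand): agactcatctctcTTATCTcctggatcagg
*Cd3e* (chr9:45010427-45010526, − strand): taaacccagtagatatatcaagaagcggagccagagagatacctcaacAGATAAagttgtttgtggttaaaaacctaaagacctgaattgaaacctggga
*Lcp2* (chr11:34046776-34046875, + strand): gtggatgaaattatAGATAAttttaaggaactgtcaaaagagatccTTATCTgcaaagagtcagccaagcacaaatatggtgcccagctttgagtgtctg
*Ptprc* (chr1:138175135-138175164, − strand): caaacttcaagagAGATAAccattattttg
*Rasgrp1* (chr2:117342938-117342967, − strand): tcctccagcctgaTGATAAcatcaacgcct
*Btla* (chr16:45223667-45223766, + strand): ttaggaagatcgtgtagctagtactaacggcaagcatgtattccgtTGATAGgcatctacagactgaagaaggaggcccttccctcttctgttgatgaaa
*Ccr8* (chr9:120091337-120091436, + strand): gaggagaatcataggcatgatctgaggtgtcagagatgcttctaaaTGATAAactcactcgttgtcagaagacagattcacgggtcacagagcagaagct
*Gfi1* (chr5:107726236-107726335, − strand): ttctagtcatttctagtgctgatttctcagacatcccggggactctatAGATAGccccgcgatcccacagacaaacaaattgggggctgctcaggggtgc
*Havcr2* (chr11:46454770-46454869, + strand): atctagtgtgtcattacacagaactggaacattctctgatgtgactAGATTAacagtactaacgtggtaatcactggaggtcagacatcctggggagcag

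Library 1 held 39287837 counted reads on chromosomes 1 to 19 and library 2 held 24084150. The threshold of 0.8 RPM corresponds to 32 reads per bin in library 1 and 20 in library 2, which is 9.85-fold over the mean bin of either library. In each library 0 reads repeated the 5′ end and strand of another, which limits how high a bin can rise. Reads of the 2 libraries carry different instruments, so a difference between libraries cannot be told apart from a difference between sequencing runs. Bins within 1 kb of a gene start made up 1.74% of all bins, against the 7.52% of sites centred there. With library 1 alone 1343 promoter sites were found and with library 2 alone 946, against 812 with both required.

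Read counts at the promoter sites were moderate and resembled those at the other sites. The lower of the 2 RPM values had a median of 1.21 and ran from 0.815 to 5.65, against a median of 1.22 at the other sites. In library 1 the central bin held 32 to 222 reads with a median of 62 (1.58 RPM). In library 2 it held 20 to 157 reads with a median of 30.5 (1.27 RPM). Across the 812 sites log2 RPM of the libraries had a Pearson's r of 0.861 and a Spearman's rho of RPM of 0.808, a description over sites that share both libraries and a threshold. The central bin stood above the mean of the bins 1 to 5 kb away by a median of 11.9-fold in library 1 and 9.66-fold in library 2, and at 807 sites it was at least 2-fold higher in both. The 5 exceptions were 2 sites of *Cd4*, 1 of the 2 sites of *Ptprc*, and those of *Rgs2* and *Nrros*. At *Cd4* the central bins, at 1.35 and 0.942 RPM in library 1, were level with or lower than the bins 1 to 5 kb away (0.987-fold and 0.698-fold, and 0.847-fold and 0.619-fold in library 2).

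**Figure D1:**
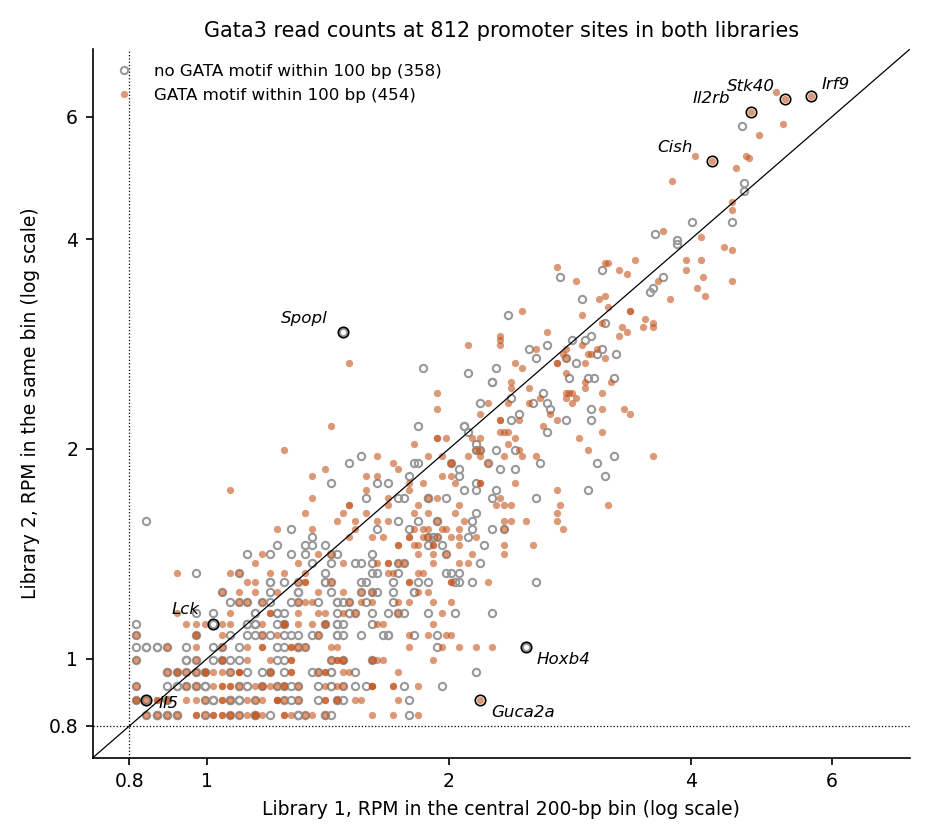
RPM in the central bin of each of the 812 promoter sites in library 1 (horizontal) and library 2 (vertical), both on log scales, with the line of equality and the threshold of 0.8 RPM dotted. Filled points have a GATA motif (WGATAR) within 100 bp of the centre (454 sites) and open points have none (358 sites). All of the 15 tallest sites but that of *Arv1* lie above the line, and most lower sites lie under it.

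Promoter sites were a little lower in library 2 than in library 1. The log2 ratio of library 2 over library 1 had a median of -0.21 (SD 0.33 over sites), against -0.09 at the other sites, and 25.2% of promoter sites were higher in library 2 against 39.3% of the others. The ratio differed along the height order, which is itself set by the lower library. Among the 203 tallest promoter sites its median was -0.08 and among the 203 lowest -0.33. Over 2-fold higher in library 1 were 11 sites, led by *Guca2a* (86 reads against 21, 2.19 and 0.872 RPM), *Hoxb4* (98 against 25 reads) and *Hist1h1a* (85 against 23 reads). No site was over 2-fold higher in library 2. The nearest to it was *Spopl*, with 58 reads in library 1 and 71 in library 2 (1.48 and 2.95 RPM).

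At the edge of the rule the choice turned on single reads. Just inside lay *Magohb* with 32 and 21 reads, *Emp1* with 32 and 27 and *Ubxn8* with 32 and 24, in library 1 and library 2. Just outside lay *Abtb2* with 31 and 20 reads, *Calcrl* with 31 and 26 and *Eif3h* with 31 and 22.

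A measure that the choice did not use comes from selecting sites in 1 library and reading them in the other. Sites of library 1 alone (0.8 RPM) were tested in library 2 with a one-sided exact Poisson test against the mean of the bins 1 to 5 kb away, or the library mean if that was higher, with Benjamini-Hochberg adjustment over all 17490 sites and a q of 0.01. Of the 1343 promoter sites of library 1, 1270 were called in library 2 (94.6%, 95% exact interval 93.2 to 95.7%), against a background of 93.3% of all sites tested. At a q of 1e-10 the share was 50.9%. Of the 946 promoter sites of library 2, 926 were called in library 1 (97.9%, 96.8 to 98.7%), against a background of 97.3% of 13341. Both backgrounds lie inside the intervals of the promoter sites. Their median height over the surroundings was 6.70-fold in library 2 (6.65-fold at other sites) and 10.5-fold in library 1 (9.31-fold at other sites). The intervals cover counting error only, and the test asks whether reads exceed their surroundings, not whether Gata3 placed them there.

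The 15 tallest promoter sites lay at genes of mixed function. The tallest was *Irf9*, which encodes a DNA-binding factor of interferon signalling. Its central bin lay in an exon 329 bp after the start and held 222 reads in library 1 and 155 in library 2 (5.65 and 6.44 RPM). *Stk40*, a gene for a kinase-related protein, held 206 and 153 reads (5.24 and 6.35 RPM) 57 bp before its start. *Tcf3*, which encodes the E protein E2A, held 201 and 157 reads (5.12 and 6.52 RPM) 253 bp before its start, with 3 WGATAR within 100 bp of the centre. It was the highest promoter site in library 2, and *Irf9* the highest in library 1.

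*Zfp213*, a zinc finger gene, held 205 and 141 reads, and *Ralgapb*, a subunit of a Ral GTPase-activating complex, held 191 and 136. *Il2rb*, which encodes the β chain of the IL-2 receptor, ranked 6 with 187 and 147 reads (4.76 and 6.10 RPM) in an exon 171 bp after its start. *Cish*, a STAT5-induced inhibitor of cytokine signalling, ranked 15 with 167 and 125 reads (4.25 and 5.19 RPM) 126 bp before its start. The other 8 were *Lsm4*, *Zdhhc24* with *Actn3*, *Tnfaip1* with *Ift20*, *Capns1*, *Olfr433*, *Slc25a23*, *Npc2* with *Isca2*, and *Arv1* with *Ttc13*, at 4.40 to 4.73 RPM in the lower library. *Olfr433* belongs to the olfactory receptor genes, a family of which 2 of 1127 members had a promoter site.

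The sites lay on both sides of the start, 433 before it and 379 after it (53.3% before, 95% exact interval 49.8 to 56.8%). The interval includes an even division. The median distance was 447.5 bp. The fullest 200-bp step was the one just before the start, with 137 sites (16.9%), and the other steps held 64 to 101. Of the centres after the start, 116 fell in an exon and 260 in an intron of the nearest gene, and 3 fell beyond its end. Most sites were narrow, 296 of 1 bin and 218 of 2 bins. The widest was *Sfi1*, with 16 bins and 151 and 95 reads in the highest, followed by *Gm21738* with 12 bins. Both stood less far above the bins 1 to 5 kb away than the medians of 11.9-fold in library 1 and 9.66-fold in library 2. *Sfi1* reached 3.11-fold and 3.31-fold, without WGATAR, and *Gm21738* 4.70-fold and 5.40-fold. No regions were left out here for piling up reads in any library, and without an input this was not tested at these sites.

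**Figure D2:**
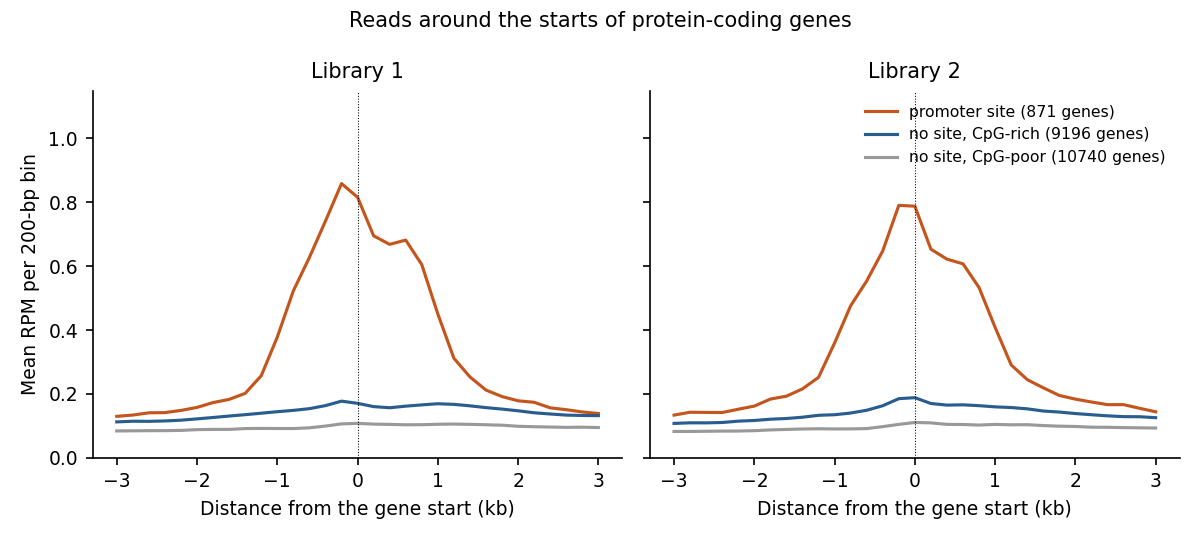
Mean RPM per 200-bp bin against the distance from the gene start in kb, in library 1 (left) and library 2 (right), for 871 genes with a promoter site, 9196 CpG-rich starts without one and 10740 CpG-poor starts without one. In the bin centred 200 bp before the start the genes with a site averaged 0.859 and 0.790 RPM, a height the rule selected, and CpG-rich starts without a site 0.177 and 0.185 RPM.

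Of 20807 protein-coding genes, 871 had a promoter site, a background of 4.19%. More genes than sites were counted because 94 sites lay within 1 kb of at least 2 starts, 86 of them with starts on both strands. More than 1 site was found at 35 genes, the highest at *Arv1* and *Ttc13*, which share a promoter region, followed by *Rdh1* and *Rdh16f1*, and *Ptprc*. At 912 gene starts neither library had a read within 1 kb, so no site could be found there. These include 7 of the 374 genes in the lists of named genes, among them 2 costimulator genes and 2 activation-induced factors. They stay in the denominators. Some reads there may not be among those analysed here, or could not be placed, so a start without reads is not shown to lack Gata3.

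The share of genes with a promoter site was higher for CpG-rich than for CpG-poor starts. Starts were called CpG-rich where the observed over expected CpG ratio in the surrounding 1000 bp was at least 0.6. Of 9819 CpG-rich genes 623 had a site (6.34%, 95% exact interval 5.87 to 6.85%), against 248 of 10988 CpG-poor genes (2.26%, 1.99 to 2.55%). The heights were close, with a median lower RPM of 1.204 at the CpG-rich and 1.29 at the CpG-poor sites. The read density at starts without a site moved in the same direction, with a median highest bin of 0.280 and 0.291 RPM at CpG-rich and 0.178 and 0.208 RPM at CpG-poor starts in library 1 and library 2. No input library was used here, so a higher read density of CpG-rich DNA in general and more Gata3 at these starts cannot be told apart.

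The GATA motif was found at promoter sites at a share between those of gene starts without a site and of the other sites. WGATAR lay within 100 bp of the centre at 454 of 812 promoter sites (55.9%, 95% exact interval 52.4 to 59.4%), and within 50 bp at 33.1%. Gene starts without a site held it in 21.1% of windows of the same length at the same distances and CpG class, and the other 9988 sites in 67.3% (66.3 to 68.2%). The intervals of both kinds of site do not overlap. AGATAA alone was found at 30.05% of promoter sites, 7.46% of gene starts without a site and 36.2% of other sites, so the margin over gene starts was 4.03-fold for AGATAA and 2.65-fold for WGATAR.

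The same letters read backwards (AATAGA for AGATAA, on either strand) were at 21.9% of promoter sites and 18.9% of gene starts without a site. The reverse of AGATAG also occurs inside tandem GATA repeats, so this comparison is not free of the motif itself. In windows centred 1 kb away on each side WGATAR was found at 29.5% for promoter sites and 33.0% for other sites. The margin of the centre over its own flanks was thus present in both classes.

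Both promoter classes held the motif. At CpG-rich starts 53.9% of sites had WGATAR against 17.6% of starts without a site, a ratio of 3.07, and at CpG-poor starts 60.7% against 29.5%, a ratio of 2.06. The reversed letters also differed by class. They were at 21.8% against 16.1% at CpG-rich starts (a ratio of 1.36) and 22.1% against 25.5% at CpG-poor starts (0.869). The baseline of gene starts is thus not alike in both classes, and the WGATAR ratios do not rank them. Of the 354 sites with exactly 1 WGATAR the median lower RPM was 1.32, and of the 358 with none 1.16. In groups of 203 by height the share was 65.5% among the tallest, then 57.1%, 48.8% and 52.2%, and it went from 70% of the 100 tallest to 52% of the 100 lowest. At the other sites, in 4 equal groups by height, it was 72.6% in the tallest and 62.6% in the lowest.

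**Figure D3:**
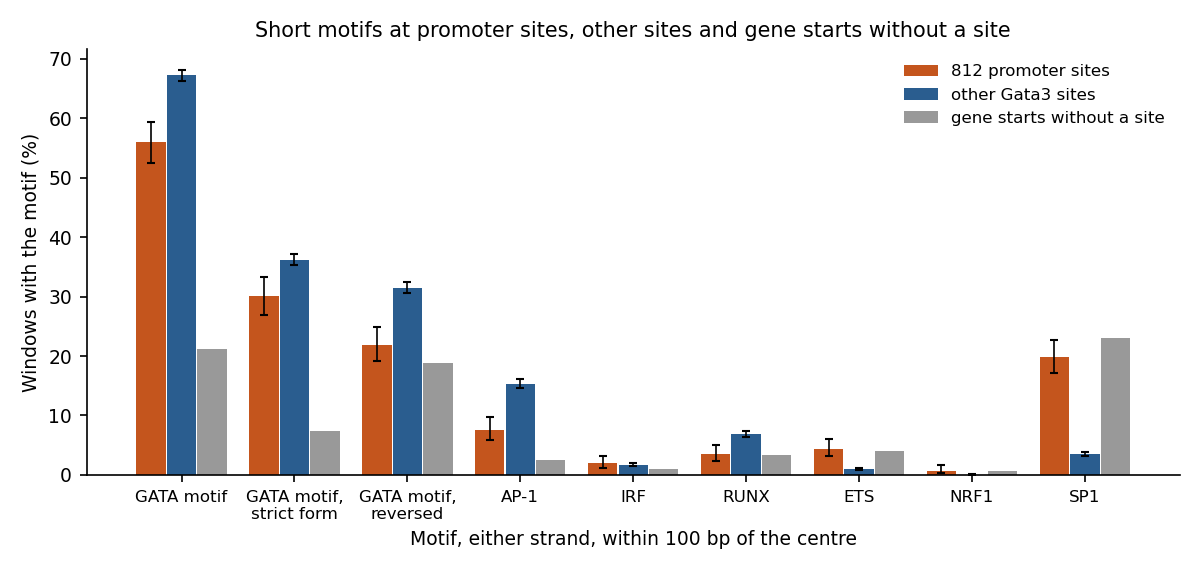
Percentage of 200-bp windows that hold each motif on either strand, for promoter sites, other Gata3 sites and gene starts without a site (matched for distance and CpG class). Error bars on the sites are 95% exact intervals for counting error. The GATA motif is WGATAR, its strict form AGATAA, and its reversed form the same letters backwards. Promoter sites exceed gene starts in all GATA forms, the reversed one the least, and in AP-1 and IRF, lie close to them in ETS, RUNX and NRF1, and lie under them in SP1.

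WGATAR was crowded at the centre of the sites. In 40-bp steps it reached 5.23 motifs per kb per site just after the centre of the promoter sites and was 1.42 in the step 200 to 240 bp before it and 2.25 in the step 200 to 240 bp after it. At the other sites it peaked at 5.62 and was 3.88 and 4.18 at the same distances. The share of promoter sites with WGATAR showed no even course with distance. In 200-bp steps it was lowest just after the start (41.7%), 48.2% just before it and 48.4% between 600 and 400 bp before it, and highest at 71.6% between 800 and 600 bp before it. Read 5′ ends, the measure that also placed the centres, were denser within 40 bp of the motif than in the flank. Over the 454 sites they averaged 0.427 ends per base per site within 5 bp of the motif in library 1, 0.380 at 15 to 40 bp and 0.280 at 150 to 200 bp, and 0.221, 0.201 and 0.148 in library 2. The mean within 5 bp hides wide steps between neighbouring bases. On the strand of the motif these reached 0.482 beside 0.101 in library 1 and 0.306 beside 0.0551 in library 2. A preference of the transposase for the letters of the motif was not tested.

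**Figure D4:**
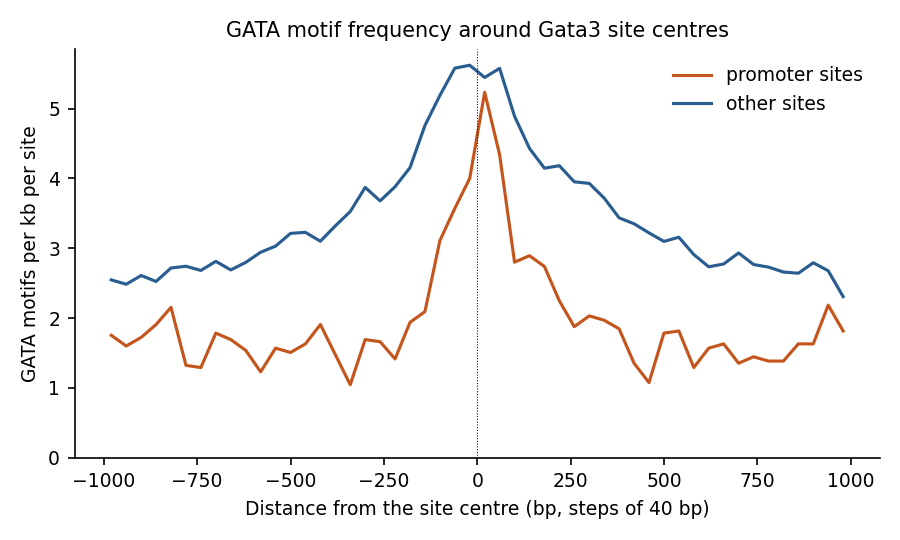
GATA motifs (WGATAR, either strand) per kb per site, in 40-bp steps, against the distance from the centre in bp, for the 812 promoter sites and the 9988 other sites. Both curves peak at the centre, at 5.23 and 5.62, and the promoter curve is lower in the flanks.

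Several promoter sites held more than 1 GATA motif. There were 78 with 2 WGATAR and 22 with 3 or more. The most were in tandem repeats, 16 at *Rpl35*, which encodes a ribosomal protein, and 12 at *Zfp867*. Neither was a tall site, with 1.22 and 1.54 RPM at *Rpl35* and 1.30 and 1.204 RPM at *Zfp867* in library 1 and library 2. The end of the repeat of *Rpl35* is shown in a short stretch, with WGATAR and its overlapping copies in capitals:
*Rpl35* (chr2:39005710-39005739, − strand): tAGATAGATAGATAGATAGatatggaggcc

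Of the other motifs AP-1, IRF and CCAAT also stood above gene starts, which lay below the counting intervals of the promoter sites. The reversed GATA letters met the same bar (19.1 to 24.9% against 18.9%). AP-1, the Fos and Jun family motif, was at 62 promoter sites (7.64%, 5.90 to 9.68%), against 2.45% of gene starts without a site and 15.3% of the other sites. IRF (GAAAGTGA), the motif of interferon regulatory factors, was at 16 promoter sites (1.97%, 1.13 to 3.18%), 0.947% of gene starts and 1.75% of the other sites. CCAAT was at 27.1% (24.1 to 30.3%) and 22.6%. SP1 (GGGCGG), typical of CpG-rich promoters, was at 19.8% of promoter sites and 23.1% of gene starts without a site, against 3.45% of other sites. ETS (CCGGAAG) was at 4.43% and 3.99%, and RUNX (TGTGGTT) at 3.57% and 3.31%. For ETS and RUNX the share of gene starts lies within the counting interval of the promoter sites, and for SP1 it lies above it (17.1 to 22.7%). TATAAA, the letters of the TATA box, was also lower than at gene starts, at 6.40% (4.82 to 8.31%) against 8.59%. It was counted on either strand around centres a median of 447.5 bp from the start. The counts are thus of letters and not of TATA boxes in place at a start. By class TATAAA was lower at CpG-poor starts (6.15% against 13.2%) and level at CpG-rich ones (6.51% against 6.59%). SP1 was lower at CpG-rich starts (23.9% against 29.4%) but not at CpG-poor ones (10.2% against 8.34%). Of the 358 promoter sites without WGATAR, 28 had AP-1 and 107 had SP1, ETS, NRF1 or the cAMP response element, some of them both, and 227 had none of these.

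Among T cell genes, promoter sites were found in most of the fixed lists. The lists were written with earlier results of these data known, and their counts are set beside the background of 4.19% of all genes without a test. This background is not matched for CpG class, which differed between lists. CpG-rich starts made up 2 of the 22 cytokine genes and 25 of the 30 activation-induced factors. Of 22 cytokine genes 5 had a site (22.7%). *Il13*, which encodes a TH2 effector cytokine, held 93 reads in library 1 and 56 in library 2 (2.37 and 2.33 RPM) in a bin centred 2 bp after its start, and AGATAA lies 79 bp before the start. The *Il13* bin stood 3.61-fold and 3.40-fold over the bins 1 to 5 kb away. That is under the 10th percentile of promoter sites, which was 5.80-fold in library 1 and 5.28-fold in library 2. *Il5*, the eosinophil growth factor of the same locus, held 33 and 21 reads (0.840 and 0.872 RPM) 894 bp before its start and is close to the threshold. Both libraries gave nearly the same RPM at these genes.

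*Il6*, a cytokine of inflammation, held 56 and 34 reads (1.43 and 1.41 RPM) 14 bp before its start. *Tnf*, the founding tumour necrosis factor, held 132 and 54 reads (3.36 and 2.24 RPM) in an intron, with 3 WGATAR within 100 bp of the centre. *Il21*, a cytokine that acts on B cells, had 2 sites, with 1.196 and 1.29 RPM before and 1.81 and 1.08 RPM after its start, and neither had WGATAR. *Il4* was not counted, although a bin within 1 kb of its start held 3.51 and 3.90 RPM. Its site is 9 bins long and its centre lies 1169 bp inside the gene.

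Of 30 cytokine receptor genes 4 had a site (13.3%). Beside *Il2rb*, *Il9r*, the IL-9 receptor, held 141 and 72 reads (3.59 and 2.99 RPM) 21 bp before its start. *Il17rb*, the receptor for IL-25, held 70 and 43 reads (1.78 and 1.79 RPM) 404 bp before its start, in an intron of the neighbouring *Chdh*. *Il2ra*, the IL-2 receptor α chain, held 63 and 33 reads (1.60 and 1.37 RPM) in an intron, without WGATAR, and 3.24-fold and 3.39-fold over its surroundings. *Il1rl1*, the IL-33 receptor ST2, had 57 and 14 reads in its highest bin, over the threshold in library 1 (1.45 RPM) and under it in library 2 (0.581 RPM).

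The T cell receptor signalling list had 10 of 40 genes with a site (25%). They include *Cd4*, whose 2 sites did not rise above the bins 1 to 5 kb away (at most 0.987-fold). *Rasgrp1*, which activates Ras downstream of the receptor, held 143 and 84 reads (3.64 and 3.49 RPM). *Ptprc*, which encodes the phosphatase CD45, held 128 and 87 reads (3.26 and 3.61 RPM) 608 bp after its start, and a lower site 792 bp before it with 1.02 and 0.997 RPM. The counts of *Rasgrp1* and of both sites of *Ptprc* lay close together in the libraries once scaled to RPM.

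*Cd3e*, a chain of the CD3 complex, held 116 and 60 reads (2.95 and 2.49 RPM) 873 bp before its start, and *Cd3d* and *Cd3g* shared a site of 43 and 25 reads between their starts. The shared site stood 3.04-fold and 3.12-fold over its surroundings. *Lcp2*, the adaptor SLP-76, held 107 reads in library 1 and 38 in library 2 (2.72 and 1.58 RPM), the widest gap of this list. *Lck*, the kinase that starts receptor signalling, held 40 and 27 reads 859 bp before its start, without WGATAR. *Ptpn22*, a phosphatase that restrains receptor signalling, had 2 sites of at most 1.22 RPM. *Zap70* had no promoter site by the rule, although a bin within 1 kb held 1.71 and 2.03 RPM, since the centre of its site lay farther away. There were 87 such genes.

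**Figure D5:**
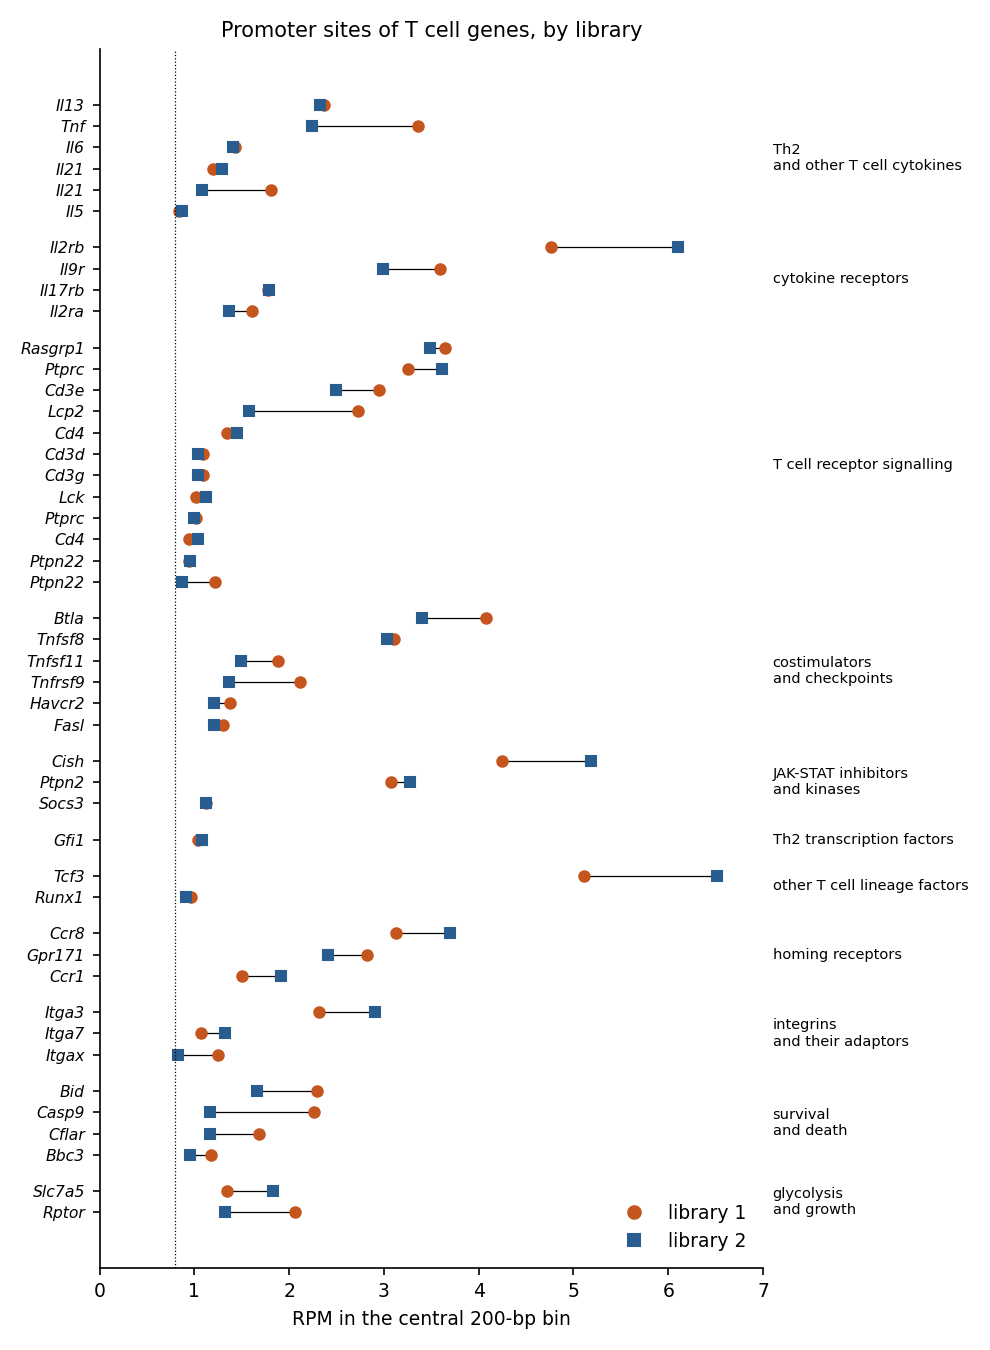
RPM in the central bin in library 1 (circles) and library 2 (squares) for the promoter sites of named genes of the T cell lists, grouped by list, with a line joining the libraries and the threshold of 0.8 RPM dotted. A gene with 2 sites has 2 lines. *Tcf3* and *Il2rb* reach the highest values in both libraries and *Il5* lies at the threshold.

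Of 25 costimulator and checkpoint genes 6 had a site (24%), namely *Btla*, *Tnfsf8*, *Tnfsf11*, *Tnfrsf9*, *Havcr2* and *Fasl*. The highest was *Btla*, an inhibitory receptor, with 160 and 82 reads (4.07 and 3.40 RPM) 615 bp before its start. *Tnfsf8*, the CD30 ligand, held 3.11 and 3.03 RPM, and *Tnfrsf9*, the receptor 4-1BB, 2.11 and 1.37 RPM. *Havcr2*, which encodes TIM-3, held 54 and 29 reads (1.37 and 1.204 RPM) 35 bp before its start, without WGATAR. The JAK-STAT list had 3 of 14 (21.4%), with *Ptpn2*, a phosphatase of JAK kinases (3.08 and 3.28 RPM), and *Socs3*, an inhibitor of cytokine signalling (1.12 RPM in both libraries), beside *Cish*. Among 24 homing genes 3 had a site, namely *Ccr8*, a chemokine receptor of TH2 cells (3.13 and 3.70 RPM), *Gpr171* (2.83 and 2.41 RPM) and *Ccr1* (1.502 and 1.91 RPM).

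The transcription factor lists stood nearer the background. Of 28 TH2 transcription factor genes 1 had a site (3.57%). It was *Gfi1*, a repressor induced in activated T cells, with 41 and 26 reads (1.04 and 1.08 RPM), 2.09-fold and 2.39-fold over its surroundings. At *Gata3* itself the highest bin near the start held 28 reads in library 1 and 10 in library 2 (0.713 and 0.415 RPM), and *Stat6* held 9 and 10. Each gene was read at a single start, the outer 5′ end of its annotation, so any other start of these genes is not covered. At *Zfpm1*, which encodes the Gata3 cofactor FOG-1, a bin within 1 kb held 178 and 89 reads (4.53 and 3.70 RPM). By the lower of the 2 libraries it was the highest of all starts without a promoter site, although *Il4* was higher in library 2 (3.90 RPM). *Zfpm1* was not counted, since the centre of its site lay farther away. Of 30 factors of other T cell lineages *Tcf3* and *Runx1* (0.967 and 0.913 RPM) had a site (6.67%), and of 30 activation-induced factors 0 did. *Runx3* had no site by the rule, although a bin within 1 kb was over the threshold in both libraries (0.967 and 0.913 RPM). The highest bin near the start of *Tbx21*, the TH1 factor, held 7 reads in each library.

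Integrin and adaptor genes had a site at 3 of 34 (8.82%), namely *Itga3* (2.32 and 2.91 RPM), *Itga7* (1.07 and 1.33 RPM) and *Itgax* (1.25 and 0.830 RPM). At *Itgav*, the αv integrin gene the study examined, the highest bin near the start held 22 and 20 reads (0.560 and 0.830 RPM), over the threshold in library 2 and under it in library 1. The paper reports Gata3 binding at the *Itgav* promoter from its Gata3 ChIP-seq of TH2 cells, and more surface αv after Gata3 overexpression. It states no threshold for this binding, so the rule used here does not decide on it. The screen regulators had 3 of 33 (9.09%), all of them T cell receptor genes named above. Survival genes had 4 of 20 (20%). They were the death genes *Bid* (2.29 and 1.66 RPM) and *Bbc3* (1.17 and 0.955 RPM), the caspase gene *Casp9* (89 reads in library 1 and 28 in library 2) and *Cflar*, an inhibitor of caspase activation (1.68 and 1.16 RPM). Glycolysis and growth genes had 2 of 25 (8%), the amino acid transporter *Slc7a5* (1.35 and 1.83 RPM) and the mTORC1 subunit *Rptor* (2.06 and 1.33 RPM).

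The control lists ran from none to above the background, which was not matched for CpG class. CpG-rich starts made up 72 of 80 ribosomal protein genes and 64 of 67 histone genes. They made up 4 of 24 B cell and myeloid genes and 4 of 23 genes of non-lymphoid tissues. Over all genes 6.34% of CpG-rich and 2.26% of CpG-poor ones had a site. Genes of B cells and myeloid cells had a site at 1 of 24 (4.17%), the B cell factor *Ebf1* (1.30 and 1.04 RPM), and genes of non-lymphoid tissues at 0 of 23. Ribosomal protein genes had a site at 6 of 80 (7.5%), the highest at *Rpl19* (141 and 82 reads, 3.59 and 3.40 RPM), and histone genes at 9 of 67 (13.4%). Zinc finger genes named *Zfp* had 22 of 385 (5.71%). The histone genes include 3 pairs that share a site, so the 9 genes stand for 6 sites.

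Other Gata3 sites around the same genes were counted as well. Within 50 kb of the start another site, more than 1 kb from any start, was found for 54.8% of the 871 genes and for 37.1% of all genes. Within 10 kb the shares were 23.0% and 11.6%. Gene density and CpG class were not matched here, and their part in the difference was not tested.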

How the data were processed

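Single 50-bp reads of 2 Gata3 ChIPmentation libraries were, according to the paper, aligned by the authors to GRCm38 with Bowtie2 (version 2.3.5.1), and reads without a unique position were removed. The submitters' processing notes also name MACS2 (version 2.1.2), whose peaks were not used here. The authors deposited 1 line per read with position, strand and the aligner's mapping quality as a score, which is not a measure of binding. Duplicates had been removed with a tool not given in the sources used here. The depth was 40526613 and 24970952 reads, of which 39287837 and 24084150 on chromosomes 1 to 19 were counted.

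Read 5′ ends were moved by 100 bp towards the 3′ end and counted in 200-bp bins, and sites, centres and gene starts were taken as the opening of the report describes. Each gene had a single start, the outer 5′ end of its annotation, except where the starts of any protein-coding transcript were used as an alternative. The fold over the surroundings divides the central bin by the mean of the bins 1 to 5 kb away, or by the library mean where that is higher. Motifs were matched exactly on either strand within 100 bp of the centre, in the GRCm38.p6 sequence of RefSeq, and the printed sequences were read from it. Windows at gene starts without a site were taken at the distances and CpG class of the promoter sites. Shares carry 95% exact (Clopper-Pearson) intervals, which cover counting error only. The retest used the one-sided exact Poisson test with Benjamini-Hochberg adjustment. The reads were compared within 1 condition, so no groups were tested.

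The promoter sites and the gene lists were chosen with earlier results of these data known. The genes named are list members with a site, the 15 tallest sites, the 3 sites just inside and the 3 starts just outside the threshold, and the highest of the genes with 2 or more sites. Genes without a site, the sites with the lowest fold, the widest sites, those with the largest ratio between libraries and those with most motifs were named after their values were seen. A member of the T cell receptor list with a site is counted but not reported here by name. The alternatives changed the threshold, bins, read shift, mapping quality, depth, library, distance, gene starts and motif. The computations used Python 3.11.15, NumPy 2.4.6, SciPy 1.17.1, pandas 2.3.3 and Matplotlib 3.10.9.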

Additional observations from a re-analysis of the deposited data

How the results depend on the processing

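Of 59 alternative values over 6 results, 32 stayed within 1.5 times the count or within the counting interval of the share, and 27 did not. The number of promoter sites was 1299 at 0.6 RPM, 432 at 1.2 RPM, 439 with the centre within 500 bp and 1321 within 2 kb. It was 946 to 1343 when either library was left out. Genes with a promoter site numbered 1370, 472, 477 and 1389 under the same 4 settings and 1000 to 1425 with a library left out. The promoter sites were 4.06% of all sites within 500 bp, 12.2% within 2 kb and 10.1% with the starts of any protein-coding transcript, and this share stayed between 7.09% and 7.68% under the 9 other settings.

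The share of promoter sites with the GATA motif was 60.6% at 1.2 RPM, 44.1% with 400-bp bins and the RPM threshold doubled to keep the same reads per base, 49.4% within 500 bp and 60.4% within 2 kb. With a library left out it was 51.4% to 57.0%. It was 33.1% in windows of 50 bp on either side and 72.8% in windows of 200 bp, which hold less and more sequence, and 30.05% for AGATAA alone. Of promoter sites chosen in library 1, the share called in library 2 was 50.9% at a q of 1e-10, 91.6% with the site included in the local mean, 92.4% within 2 kb and 99.2% at 1.2 RPM. Of those chosen in library 2, 88.3% were called in library 1 at a q of 1e-10 and 99.6% at 1.2 RPM. The cause of these changes was not tested where the setting itself does not give it.

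At the threshold a bin holds 32 reads in library 1 and 20 in library 2, and a start with fewer reads is not shown to lack Gata3. No paired analysis was possible because the libraries are replicates of 1 condition.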

Other observations

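Reading the sequences of the tallest sites showed the letters GATC close to many of the GATA motifs, and the following counts were chosen after that was seen. Of the 454 promoter sites with WGATAR, 103 had GATC within the 12 bases on either side of a WGATAR (22.7%, 95% exact interval 18.9 to 26.8%). Windows centred 1 kb from the sites that held WGATAR had it at 6.26%. The same letters backwards, CTAG, were beside WGATAR at 7.05% of these promoter sites and 5.22% of the flank windows. The other sites gave 24.6% for GATC against 5.64% in their flanks, and 9.56% for CTAG against 7.19%. Among the 15 tallest promoter sites 6 had GATC beside the motif, *Irf9*, *Stk40*, *Ralgapb*, *Il2rb*, *Slc25a23* and *Cish*, and the median lower RPM of the 103 was 1.58, and that of the 32 with CTAG 1.54, against 1.33 for all promoter sites with WGATAR.

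Near forms of WGATAR at promoter sites without it were also counted after the data were seen, and several were above the flanks. AGATTA or AGATTG was within 100 bp of the centre at 108 of these 358 sites (30.2%) and at 10.2% of the windows without WGATAR centred 1 kb away. AGATTA alone was at 14.8% and 5.15%, and AGATTG alone at 16.5% and 5.59%. AGATTG followed by G reads CCAATCT on the opposite strand, so these counts can share letters with those of CCAAT. The flank windows were not matched for distance from a gene start or CpG class. Of the other forms counted, AAGATC was at 14.8% and 7.34%, AGATAC at 11.7% and 5.76%, AGATCT at 9.22% and 5.59%, and CGATAA at 4.19% and 1.48%. AGATTA and AGATTG backwards were at 14.5% and 11.4%. At the 3270 other sites without WGATAR the shares of AGATTA or AGATTG were 29.5% and 15.4%, and 16.2% and 14.5% backwards. AP-1 was at 7.82% of the promoter sites without WGATAR and at 2.27% of their flanks, and at 16.7% and 4.13% for the other sites without WGATAR.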
